A study of Mus musculus with 27 samples.

Results

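The enzymes that handle glutathione, hydrogen peroxide and superoxide were followed in whole brain RNA of DBA and C57 mice. They were taken as every probe set whose gene symbol in the platform annotation begins with Gst (followed by a class letter and a digit), Mgst, Gpx, Prdx or Txn, or is Sod1, Sod2, Sod3, Gsr, Gclc, Gclm, Gss, Cat, Glrx or Nqo1. This gave 65 of the 12488 probe sets of the array, for 49 genes. A further 2 probe sets carry 2 symbols each, 1 of them a peroxiredoxin, and were not counted because a set with several symbols cannot be given to 1 gene. They differed between the strains by 0.02 ± 0.11 and 0.09 ± 0.14 on the log2 scale (DBA minus C57, standard error).

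The DBA group had 4 arrays and the C57 group 5, and each array was taken as 1 animal because the labels speak of as many mice. The labels call the strains DBA/2J and C57BL/2. Groups were taken from the sample titles, since every description also carries the same alternative name, C57 1. All mice were 10 weeks old and naive, the C57 mice are said to be male, and the sex of the DBA mice is not given. Values are intensities of probe sets, in the arbitrary units of the array, and those of different probe sets cannot be set against each other. Every array had been scaled to 1 target by the authors (trimmed mean 500.3 on all 9), and array medians ran from 167.6 to 188.4 in DBA and from 159.6 to 197.8 in C57.

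Glutathione is a small thiol that cells make from glutamate, cysteine and glycine. Glutathione transferases couple it to reactive compounds, glutathione peroxidases spend it on peroxides, and glutathione reductase restores it. Peroxiredoxins remove peroxides with a cysteine that thioredoxin then reduces, and superoxide dismutases and catalase act ahead of or beside both systems. In brain, astrocytes hold much of the glutathione and supply neurons with its precursors. Many of these genes are known targets of the transcription factor NRF2 (gene Nfe2l2), which binds the antioxidant response element.

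The core of that element, TGACNNNGC on either strand, was looked for in RefSeq promoters of build GRCm38.p6, from 250 bases before to 50 bases after a gene's start. Of the 49 genes 42 had a promoter there, and 7 of them (16.7%) held the core, against 14.0% of all 27025 genes with a promoter. The 7 matches are shown because they are the places in these windows where the core sequence occurs. Each line runs 5′ to 3′ on the strand of the match, with the core in capitals.
Gclm, chr3:122245413-122245441, minus strand: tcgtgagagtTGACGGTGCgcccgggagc
Gsta3, chr1:21240454-21240482, plus strand: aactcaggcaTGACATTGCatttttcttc
Gstm5, chr3:107895802-107895830, plus strand: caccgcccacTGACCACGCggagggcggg
Mgst1, chr6:138140461-138140489, minus strand: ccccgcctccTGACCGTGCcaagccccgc
Sod1, chr16:90220696-90220724, minus strand: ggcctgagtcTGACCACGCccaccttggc
Txndc5, chr13:38528034-38528062, minus strand: gcctcgccgcTGACGTGGCgctagccgcc
Txnrd1, chr10:82859104-82859132, minus strand: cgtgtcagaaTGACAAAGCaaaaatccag
Gsta3 lay below the brightness limit used for testing. The other 6 genes were tested, and 0 of them passed the threshold between the strains. Their differences are given with their groups below. A match describes the letters of the window only.

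Strains were compared probe set by probe set with limma on log2 intensity, as DBA minus C57. The test covered the 9316 sets above the dimmest 25% by mean over all arrays, a limit at an intensity of 35.4. It held 60 of the 65 member sets, for 47 of the 49 genes. The member set just below the limit was Gsta3 93015_at, with a geometric mean of 34.8 over all animals, and the one just above was Mgst2 104742_at, with 37.9.

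Among the 60 tested sets, 2 passed an adjusted p of 0.05: a set of the peroxiredoxin gene Prdx2 was lower in DBA brain, and the set of the glutathione transferase gene Gstz1 was higher. Over all probe sets 2.50% passed, 0.891% higher and 1.61% lower, so a count of 2 in 60 (3.33%) is near the background. The share depends on the settings. With the dimmest 50% of sets left out 4 of 44 members (9.09%) passed, against 4.17% of all sets. A variance model that follows intensity and outlying sets (with trend) gave 4 of 60 (6.67%), against 3.18%. Quantile normalization gave 5.0% against 2.63%, and the animal number as a block 1.67% against 0.784%. The member share was below that of all sets with median centring (1.67% against 2.31%) and without the brightness filter (1.54% against 1.63%). The same held with the brightest set per gene (2.13% against 2.24%). With 1 animal left out it was 1.67% to 3.33%, against 1.99% to 2.48%. At an unadjusted p under 0.05 there were 5 member sets (8.33%), against 12.2% of all sets. The median log2 difference of the 60 sets was -0.01, against 0.009 over all sets, with 30 above and 30 below 0. The strains did not overlap at 5 of the 60 sets (8.33%), 2 higher and 3 lower in DBA, against 6.45% of all sets (2.84% higher and 3.61% lower). Of the 60, 56 differed by less than 0.5 on the log2 scale. In whole tissue, fewer cells of a type and less RNA per cell cannot be told apart.

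**Figure D1:**
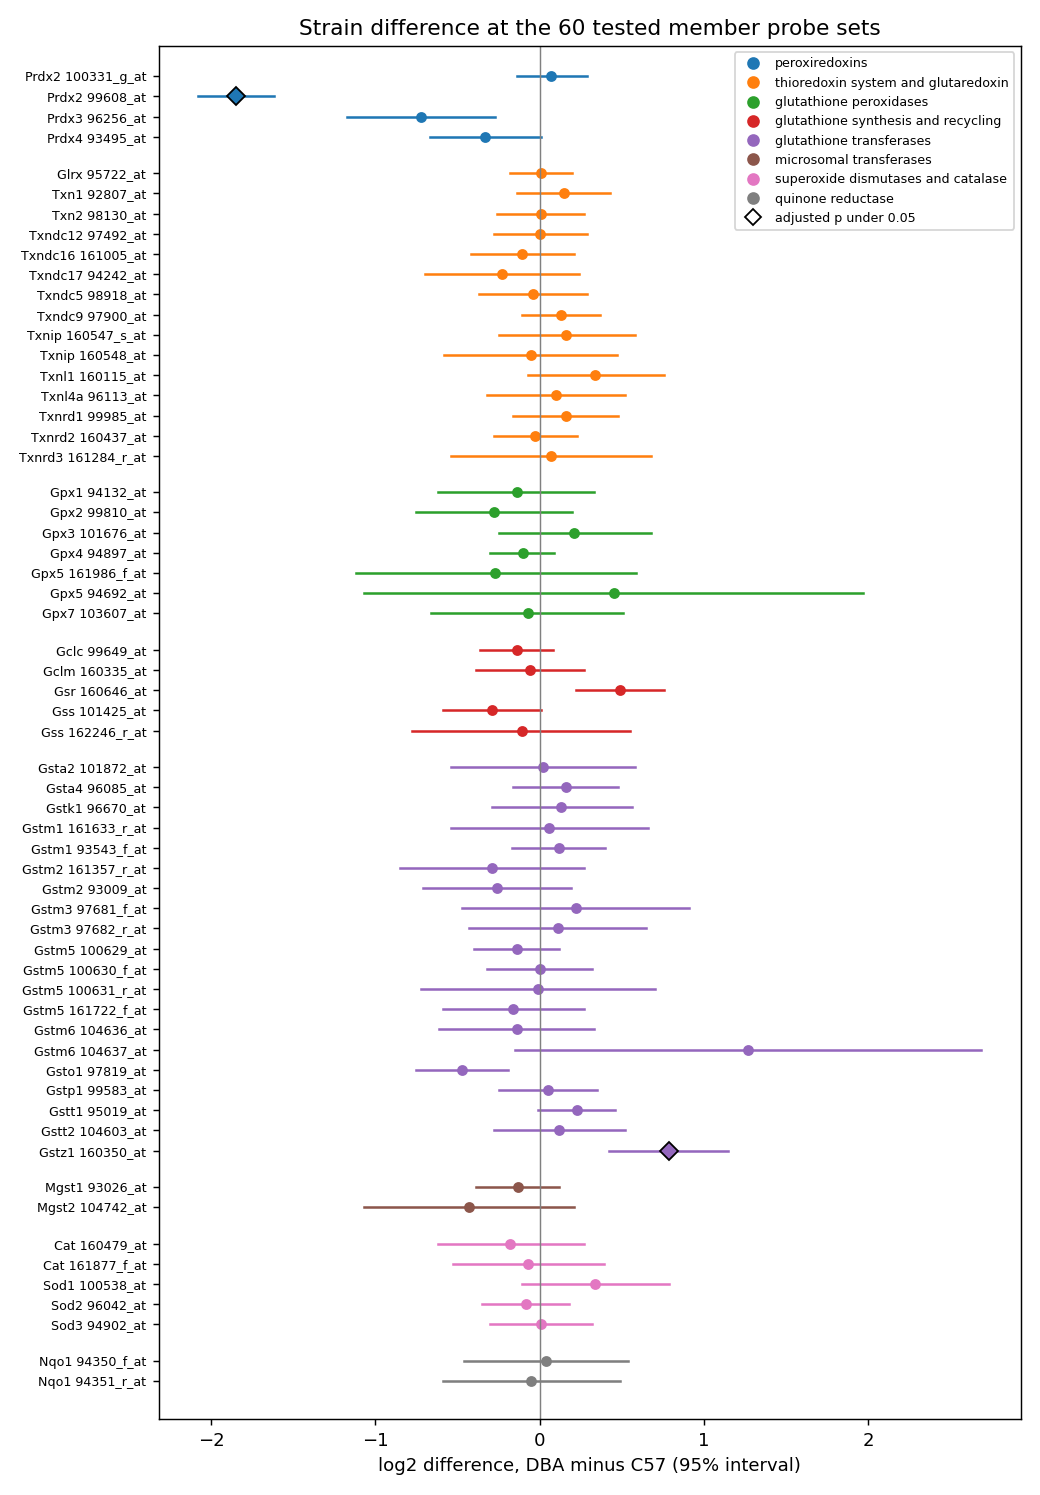
Log2 difference between the strains (DBA minus C57, x axis) at each of the 60 tested probe sets, grouped by role, with the 95% interval of the limma fit as a line. Diamonds mark the 2 sets past an adjusted p of 0.05, Prdx2 99608_at at -1.85 and Gstz1 160350_at at 0.79. Most other sets lie within 0.5 of 0.

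Of the 4 tested peroxiredoxin sets, 1 was called lower and 0 higher, and the median difference was -0.53. That median rests on few sets, 2 of them Prdx2 sets that disagree, as given below. The 2 sets with several symbols, which differed by 0.02 ± 0.11 and 0.09 ± 0.14, are not among the 4. Prdx2 encodes a cytosolic peroxiredoxin that is abundant in neurons and in red blood cells. Its set 99608_at read 267.0, 255.8, 282.5 and 251.8 in DBA animals 1 to 4, against 832.8, 964.4, 949.2, 1085.7 and 944.9 in C57 animals 1 to 5. All 4 DBA animals lay together, far below the lowest C57 animal. The set was 3.61-fold lower in DBA (log2 difference -1.85 ± 0.10, SE; adjusted p = 1.09e-05).

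A second Prdx2 set gave another picture. Set 100331_g_at read 5997.2, 6058.6, 5464.6 and 5637.3 in DBA, against 4966.6, 6053.9, 5331.7, 5540.8 and 5690.8 in C57, and the strains overlapped. Its log2 difference was 0.07 ± 0.10 (95% interval -0.14 to 0.29; adjusted p = 0.849). Within each animal, the log2 ratio of 99608_at to 100331_g_at was -4.45 ± 0.13 in DBA (SD, n = 4) and -2.53 ± 0.12 in C57 (SD, n = 5), and the strains differed by -1.92. An exact 2-sided permutation test over the 9 animals gave p = 0.00794 for this 1 pair of sets, the smallest p that 4 animals against 5 allow. The pair was examined with the call already known. The third Prdx2 set, 100330_at, had intensities of 1.1 to 5.6 in DBA and 1.7 to 6.4 in C57, below the brightness limit in every animal. The 2 tested sets therefore give no single direction for Prdx2 RNA, and 100330_at is too dim to give one.

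Red cell markers were measured beside Prdx2. The summed intensity of Hba-a1, Alas2 and Slc4a1 ran from 4375 to 7673 in DBA and from 5419 to 9561 in C57, so the strains overlapped. Most of it was Hba-a1, at 4187.3 to 7466.7 in DBA and 5172.9 to 9277.6 in C57. Here and below, a sum takes in every set of the listed genes on the array, so the brightest sets weigh most. Of the 3 red cell genes 0 passed the test. Their part in the Prdx2 values was not tested.

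Prdx3 encodes the mitochondrial peroxiredoxin. Its set read 1258.3, 753.9, 1323.5 and 1337.3 in DBA, against 1878.9, 2133.6, 1944.6, 2136.4 and 1391.2 in C57. The strains did not overlap, but DBA animal 2 lay well below the other DBA animals and C57 animal 5 close to the DBA range. The difference of -0.72 ± 0.20 did not pass (adjusted p = 0.127) and passed only with a variance model that allows for intensity and outlying sets (adjusted p = 0.0426).

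Prdx4, the peroxiredoxin of the endoplasmic reticulum, averaged 270 ± 52.1 in DBA (SD, n = 4) and 337 ± 44.2 in C57 (SD, n = 5). Its log2 difference was -0.33 ± 0.15 (95% interval -0.67 to 0.01; adjusted p = 0.424), and the strains overlapped.

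**Figure D2:**
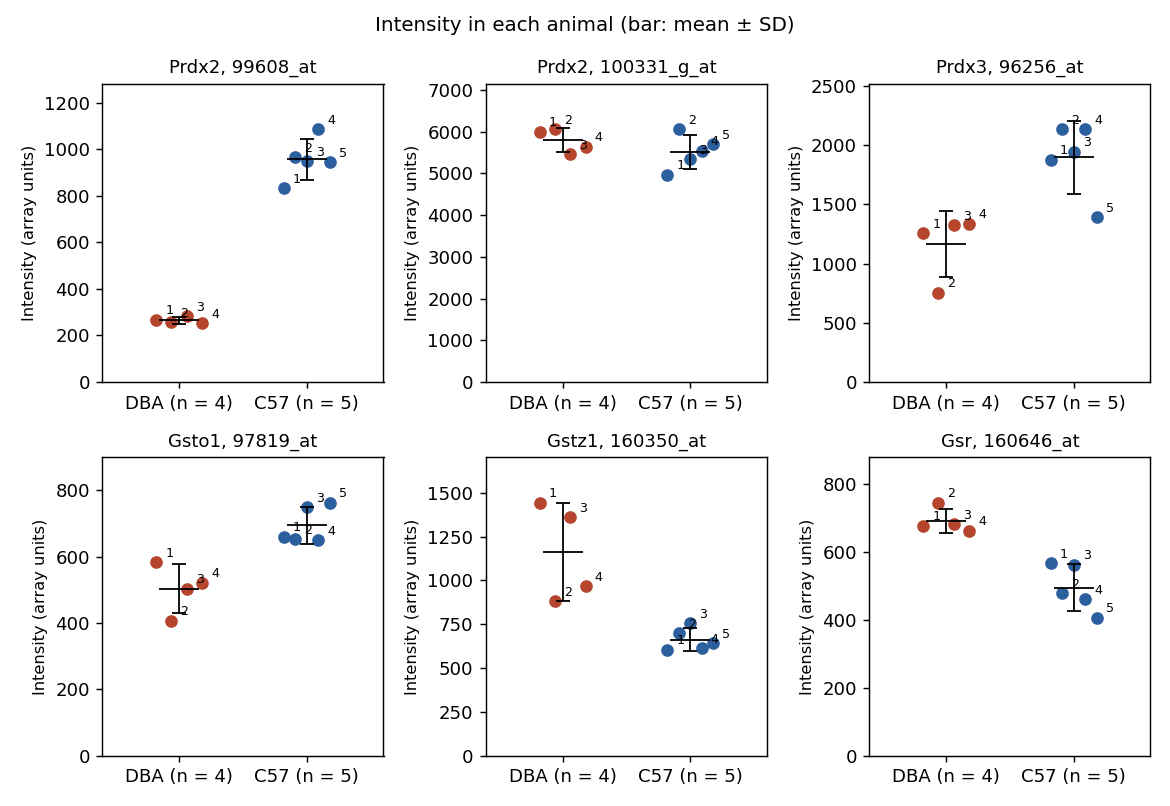
Intensity (y axis, array units, from 0) of 6 probe sets in each of 4 DBA and 5 C57 animals, with animal numbers beside the points and mean ± SD as bars. The strains are apart at 5 of the 6 panels and overlap at Prdx2 100331_g_at, while Prdx2 99608_at shows DBA at 251.8 to 282.5 and C57 at 832.8 to 1085.7.

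Of the 20 tested sets of cytosolic and mitochondrial glutathione transferases (13 genes), 1 rose in DBA, 0 fell, and the median difference was 0.06. Gstz1 encodes the zeta class transferase, which isomerizes maleylacetoacetate in the breakdown of tyrosine and also metabolizes dichloroacetate. Set 160350_at read 1442.3, 882.5, 1361.7 and 967.2 in DBA, against 603.2, 699.9, 754.4, 612.7 and 642.4 in C57. All DBA animals lay above all C57 animals, with DBA animals 1 and 3 well above animals 2 and 4. The set was 1.72-fold higher in DBA (0.79 ± 0.16, SE; adjusted p = 0.0357).

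The Gstz1 call was near the threshold. It was lost without DBA animal 1 or 3 or C57 animal 1, 2, 4 or 5 (log2 difference 0.67 to 0.81, adjusted p 0.0753 to 0.108), when each array was centred on its median (0.0671) and without the brightness filter (0.0739).

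Gsto1, the omega class enzyme that acts as a thiol transferase and reduces methylated arsenic, lay the other way without passing. It read 583.7, 406.4, 503.9 and 521.1 in DBA, against 659.8, 651.9, 748.8, 649.4 and 762.5 in C57. No DBA animal reached the lowest C57 animal. The difference was -0.47 ± 0.12 (adjusted p = 0.103), and with the dimmest 50% of sets left out it passed (adjusted p = 0.0478).

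Gstt1, a theta class transferase, averaged 263 ± 25.8 in DBA and 224 ± 15.9 in C57 (SD, n = 4 and n = 5), with overlap between the strains. Its difference was 0.23 ± 0.11 (adjusted p = 0.431).

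The mu class transferases took 12 of the 20 tested sets and 5 genes, and 0 of them passed. Gstm1, a mu class enzyme rich in astrocytes, and Gstm5, of the same class, were chosen for display after their values were seen, as was Gstp1, the pi class enzyme. Gstm1 93543_f_at differed by 0.12 ± 0.13 and Gstm1 161633_r_at by 0.06 ± 0.27. The 4 Gstm5 sets lay between -0.16 and 0.00, with Gstm5 100629_at at -0.14 ± 0.12. Gstp1 read 5647.3, 5680.6, 5399.2 and 4310.9 in DBA, against 4366.4, 5081.8, 4562.7, 5363.6 and 6030.9 in C57, a difference of 0.05 ± 0.13 (95% interval -0.25 to 0.35). Sets that end in f_at match families of similar sequences, so the mu class sets of that kind (Gstm1, Gstm3 and Gstm5) may read several mu class genes.

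Gstm6 had 2 sets that did not go together. Set 104637_at read 77.1, 103.5, 137.0 and 36.6 in DBA, against 10.6, 71.6, 15.8, 44.3 and 73.7 in C57, and its log2 values spread by 1.11 (SD) within strains, the second widest of the 60 tested sets. Its difference was 1.27 ± 0.64 (adjusted p = 0.481), and that of 104636_at was -0.14 ± 0.21. The Gstm2 sets differed by -0.29 ± 0.25 and -0.26 ± 0.20 and the Gstm3 sets by 0.22 ± 0.31 and 0.11 ± 0.24. Gsta2, Gsta4, Gstk1 and Gstt2 differed by 0.02 to 0.16. Gsta1 160063_i_at was dim, at 2.2 to 3.1 in DBA and 2.3 to 4.2 in C57.

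Microsomal transferases are membrane enzymes that conjugate or reduce lipid peroxides. Of their 2 tested sets 0 passed. Mgst1 averaged 132 ± 8.79 in DBA and 146 ± 17.6 in C57 (SD, n = 4 and n = 5; difference -0.13 ± 0.11), and Mgst2 104742_at averaged 32.9 ± 8.80 in DBA and 45.8 ± 17.1 in C57 (-0.43 ± 0.29), close to the brightness limit. The other Mgst2 set, 161865_r_at, lay below the limit on average but reached 139.7 in DBA animal 3, and read 68.8, 38.5 and 11.2 in the other DBA animals, against 5.3 to 27.8 in C57.

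Glutathione synthesis and recycling had 5 tested sets of 4 genes, 0 called, with a median of -0.11. Gsr encodes glutathione reductase, which restores glutathione with NADPH. It read 677.9, 745.1, 681.7 and 662.6 in DBA, against 567.2, 479.2, 562.2, 460.6 and 406.7 in C57. All DBA animals lay above all C57 animals. The set was 1.41-fold higher on average but did not pass (0.49 ± 0.12, adjusted p = 0.0771). It passed under 3 other settings: quantile normalization (adjusted p = 0.0452), leaving out the dimmest 50% of sets (0.0340), and the variance model with trend (0.0402).

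The enzymes that build glutathione lay slightly below 0. Gclc, the catalytic subunit of glutamate-cysteine ligase, read 485.1, 521.4, 474.7 and 548.3 in DBA, against 606.3, 570.1, 568.3, 500.6 and 553.4 in C57 (difference -0.14 ± 0.10, 95% interval -0.36 to 0.08). Gclm, its modifier subunit, differed by -0.06 ± 0.15. Gss, glutathione synthetase, differed by -0.29 ± 0.13 at 101425_at (adjusted p = 0.431) and by -0.11 ± 0.30 at 162246_r_at. None of these 4 sets passed, and the strains overlapped at each.

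Of the 7 tested glutathione peroxidase sets (6 genes) 0 passed, with 2 above and 5 below 0. Gpx4, the selenoenzyme that reduces lipid peroxides in membranes and protects from ferroptosis, was among the steadiest members, with a within-strain SD of 0.07. It read 1084.2, 1042.0, 1020.9 and 1033.8 in DBA, against 1090.1, 1204.4, 1182.9, 1063.5 and 1077.1 in C57, a difference of -0.10 ± 0.09 (95% interval -0.30 to 0.09). Gpx3, the secreted enzyme of plasma, averaged 581 ± 57.3 in DBA and 520 ± 173 in C57 (SD, n = 4 and n = 5), with C57 animal 3 at 813.7, and differed by 0.21 ± 0.21.

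Gpx2, known from the gut lining, differed by -0.28 ± 0.21. Gpx5, an enzyme known from the epididymis, had the largest and the third largest within-strain spread of the tested members (1.19 at 94692_at and 0.66 at 161986_f_at), at mean intensities of 48.1 to 56.5 in DBA and 49.1 to 53.5 in C57. Its sets differed by 0.45 ± 0.68 and -0.27 ± 0.38. For Gpx1, the widespread cytosolic enzyme, chosen after its value was seen, the difference was -0.14 ± 0.21, and for Gpx7 it was -0.07 ± 0.26.

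The thioredoxin group held 15 tested sets of 14 genes, 0 called, between -0.23 and 0.34. Txn1 encodes the cytosolic thioredoxin. It read 3319.1, 3320.8, 3384.6 and 2632.6 in DBA, against 2678.6, 2880.6, 2389.8, 3049.7 and 3288.9 in C57, and differed by 0.15 ± 0.13 (adjusted p = 0.739). Txnl1, a thioredoxin-like protein that binds the proteasome, averaged 538 ± 148 in DBA and 418 ± 64.7 in C57 (SD, n = 4 and n = 5; 0.34 ± 0.19), and DBA animal 3 at 758.9 stood apart from the other DBA animals at 447.3 to 474.8. Txndc9, which binds the chaperonin CCT, differed by 0.13 ± 0.11.

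Glrx, the cytosolic glutaredoxin that removes glutathione from proteins, had the smallest within-strain spread of the tested members (SD 0.05). It read 939.8, 1002.4, 975.4 and 930.0 in DBA, against 946.4, 938.3, 908.1, 972.8 and 1001.6 in C57. The difference was 0.01 ± 0.09, with a 95% interval of -0.18 to 0.20. The reductases, chosen after their values were seen, differed by 0.16 ± 0.14 (Txnrd1, cytosolic) and -0.03 ± 0.11 (Txnrd2, mitochondrial). Txndc5, one of the genes with a sequence match to the core, differed by -0.04 ± 0.15. Some members that share the name are not antioxidant enzymes: Txnip binds and inhibits thioredoxin, and Txnl4a is a part of the spliceosome. The other 8 tested sets, of Txn2, Txndc12, Txndc16, Txndc17, Txnip, Txnl4a and Txnrd3, differed by -0.23 to 0.16. A second Txnrd3 set, 161043_r_at, lay below the brightness limit.

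Superoxide dismutases and catalase had 5 tested sets of 4 genes, and 0 passed. Sod1 encodes the copper-zinc enzyme of the cytosol. It read 4123.8, 4253.4, 7616.9 and 4036.9 in DBA, against 3033.4, 4231.0, 3667.9, 4128.3 and 4099.8 in C57. A single animal, DBA 3, was high, and the others overlapped. The difference of 0.34 ± 0.20 (adjusted p = 0.573) became 0.12 without DBA animal 3. Sod2, the manganese enzyme of mitochondria, differed by -0.08 ± 0.12, and Sod3, the secreted enzyme, by 0.01 ± 0.14. Cat, the peroxisomal catalase, differed by -0.18 ± 0.20 at 160479_at and -0.07 ± 0.21 at 161877_f_at.

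Nqo1, a quinone reductase commonly used as a readout of NRF2 activity, had 2 sets with differences of 0.04 ± 0.22 (94350_f_at) and -0.05 ± 0.24 (94351_r_at). Its intensities were low, 44.3 to 80.4 in DBA and 37.9 to 92.9 in C57, and the intervals of both sets reached 0.46 or more on either side of 0.

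Agreement between sets of a gene could be read at 11 genes with 24 tested sets. At 8 of the 11 the sets of a gene lay within 0.5 of each other. The exceptions were Prdx2 (range 1.92), Gstm6 (1.41) and Gpx5 (0.71). At 6 of the 11 the sets lay on both sides of 0.

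**Figure D3:**
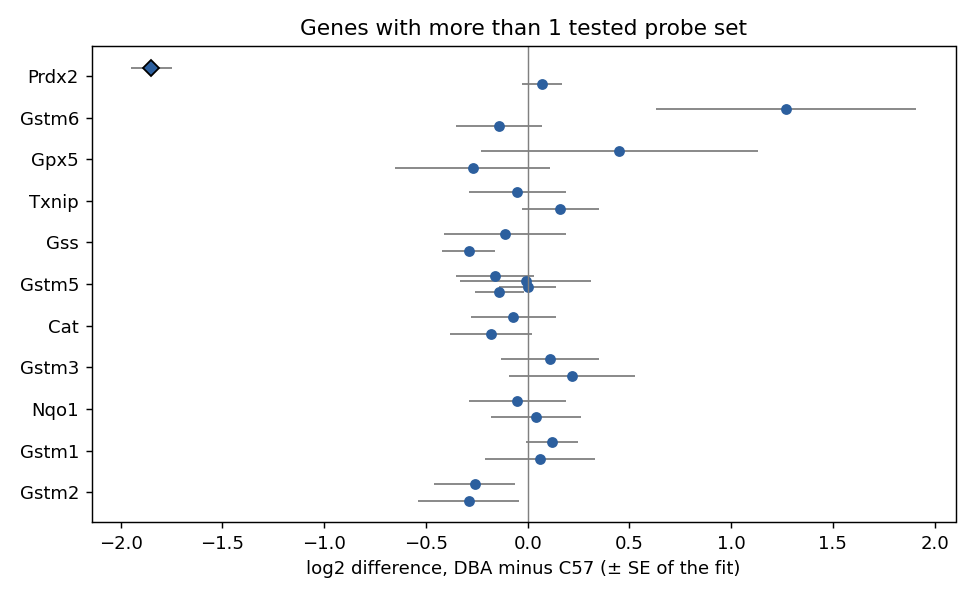
Log2 difference between the strains (DBA minus C57, x axis) at each tested set of the 11 genes with more than 1, with the standard error of the limma fit as a line and a diamond for the called set. The 2 Prdx2 sets lie 1.92 apart, and those of 8 genes lie within 0.5.

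Animals of a strain were compared at the member sets. The median within-strain SD of log2 intensity was 0.30 over the 60 member sets and 0.24 over all tested sets. C57 animals 1 and 3 were the 2 highest C57 animals at 20 of the 60 sets (33.3%), among them both Cat sets, both Nqo1 sets and Gpx1, and at 29.2% of all sets. These animals also had the highest C57 array medians, 197.8 and 191.0 against 159.6 to 168.9. DBA animal 3 was the highest DBA animal at 21 sets (35.0%), against 27.2% of all sets. The part of the array medians in these values was not tested.

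**Figure D4:**
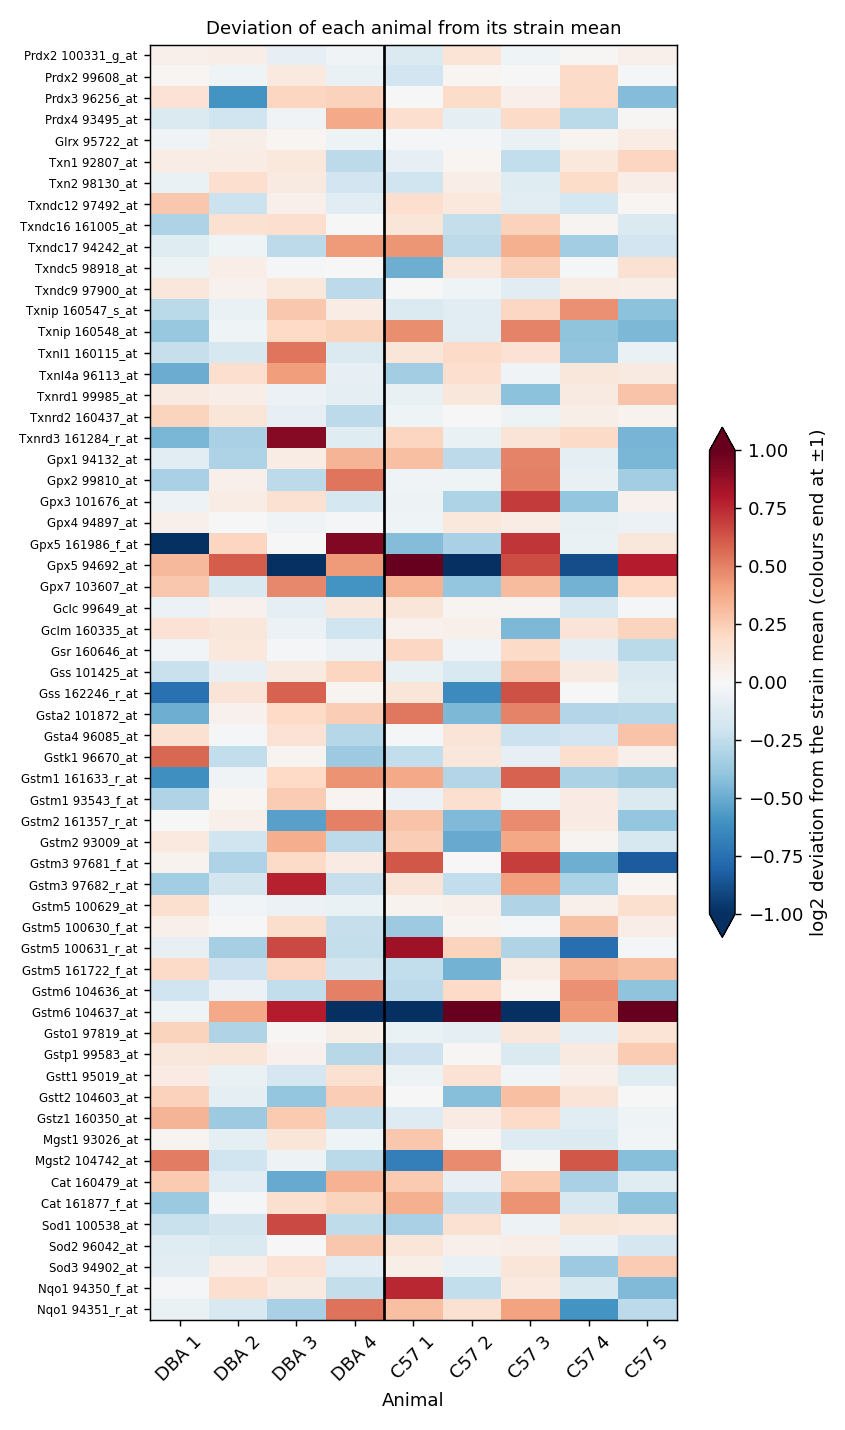
Deviation of each animal's log2 intensity from its strain's mean (colour, ending at 1 in either direction) at the 60 tested sets (rows), with DBA animals left and C57 animals right of the line. C57 animals 1 and 3 are high together at many rows, and DBA animal 3 is high at Sod1, Txnl1 and Txnrd3.

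Around these enzymes, 7 lists of pathway genes held 69 tested genes, of which 2 rose and 1 fell in DBA. A gene was counted if any of its tested sets passed. For comparison, 2.50% of all sets passed, and 2.24% with the brightest set per gene, where Glo1, Me1 and Nos1 also passed. Glo1, the glutathione-dependent enzyme that clears methylglyoxal, had a called set. Set 93269_at read 3995.0, 4557.1, 3344.3 and 4484.1 in DBA, against 1697.8, 1962.8, 1778.2, 2085.8 and 1994.8 in C57, and all DBA animals lay above all C57 animals. The set rose 2.14-fold (1.10 ± 0.12, adjusted p = 0.000842), while 93268_at missed the threshold at 0.74 ± 0.18 (adjusted p = 0.0670). Set 93268_at passed with the dimmest 50% left out (0.0260) and with the variance model with trend (0.0173). It also passed without DBA animal 3 (0.91, adjusted p = 0.0124). Glo1 was the 1 gene called among 13 tested genes of glutathione supply and use, whose median was -0.05.

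Of 8 genes that supply NADPH, 1 fell and 0 rose (median 0.14). Me1, the cytosolic malic enzyme, read 560.9, 679.8, 516.0 and 794.1 in DBA, against 1119.9, 1036.7, 1041.0, 949.2 and 1113.6 in C57. The strains did not overlap, and the set was 1.67-fold lower in DBA (-0.74 ± 0.14, adjusted p = 0.0181). Without DBA animal 1, C57 animal 1 or C57 animal 5 the adjusted p was 0.0666, 0.0505 and 0.0533.

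Of 9 genes that make superoxide, peroxide or nitric oxide, 1 rose and 0 fell (median 0.17). Nos1, the neuronal nitric oxide synthase, read 244.2, 279.5, 262.4 and 191.3 in DBA, against 143.8, 115.6, 156.9, 77.2 and 101.7 in C57. All DBA animals lay above all C57 animals (1.07 ± 0.21, 2.10-fold, adjusted p = 0.0269). The call was lost without DBA animal 1, 2 or 3 or C57 animal 2 or 5 (adjusted p 0.0681 to 0.0959) and without the brightness filter (0.0581), and the set lay among the dimmest 50%.

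The other lists had 0 calls. Among 8 tested NRF2 regulators the median was 0.06, the smallest p was that of Nfe2l1 (0.22 ± 0.09 at 101757_at, adjusted p = 0.359, with 0.03 ± 0.10 at its brighter set 160535_at), and Keap1 lay below the brightness limit. Nfe2l2 itself, named outside the rule after its value was seen, differed by -0.04 ± 0.17. A list of NRF2 targets and related genes (Mt1, Mt2, Mt3 and Hmox2 included) had 15 tested genes with a median of -0.01. Its smallest p was that of Ephx1, the microsomal epoxide hydrolase (-1.01 ± 0.27, adjusted p = 0.113). Ephx1 passed with the dimmest 50% of sets left out (adjusted p = 0.0442), with the variance model with trend (0.0466) and without DBA animal 4 (0.0252). The 9 tested genes of selenoproteins and their synthesis had a median of -0.04, with Selenos, a selenoprotein gene (-0.35 ± 0.21), at the smallest p. The 7 tested genes of a list made for metal transport and delivery had a median of -0.06, with Slc30a1 (0.44 ± 0.17) at the smallest p. Mtch1, which is not known as a metal transporter, was counted among them (-0.27 ± 0.15).

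Other measures also differed between the strains. Of 10 lists of cell type markers with 41 tested entries, 3 genes had a set called lower in DBA and 0 higher. They were C1qb and C1qc of 6 microglia markers and Mobp (at 1 of its sets) of 4 oligodendrocyte markers. Over all sets 2.50% passed, 1.61% lower. The summed intensity of the microglia list was 3760 to 4123 in DBA and 4602 to 5236 in C57. The other microglia markers did not pass, with differences of -0.15 ± 0.12 (C1qa), -0.18 ± 0.25 (Aif1), 0.04 ± 0.16 (Cx3cr1) and, for the brighter Csf1r set, -0.06 ± 0.10. The sum of choroid plexus and ependyma was 3794 to 5076 in DBA and 1464 to 3931 in C57, with Aqp1 below the limit. Most of it was Ttr, also the 1 tested gene of the liver list. Ttr read 2969.6 to 4143.2 in DBA and 907.4 to 2970.3 in C57 (0.85 ± 0.30, adjusted p = 0.257). Kl differed by 0.38 ± 0.21 and Folr1 by 0.46 ± 0.39, while Foxj1 differed by -0.21 ± 0.16. The median of these 4 genes was 0.42, with 3 of 4 above 0, and 0 passed. The sum of oligodendrocyte markers was 28960 to 34211 in DBA and 30063 to 42441 in C57. By the brightest set of each gene, their median difference was -0.38, with 0 of 4 above 0. Mag (-0.57 ± 0.16, adjusted p = 0.12) and Mog (-0.62 ± 0.18, adjusted p = 0.137) did not pass. A dimmer Mag set differed by 0.29 ± 0.18. Astrocyte markers (0 of 5 called) summed to 21587 to 24047 in DBA and 20970 to 24139 in C57, and neuron markers (0 of 5 called) to 40457 to 45582 in DBA and 39819 to 42692 in C57. Endothelial markers (0 of 6 called) summed to 1850 to 2494 in DBA and 2043 to 2474 in C57, and pituitary markers (0 of 5 called) to 777 to 1056 in DBA and 638 to 1196 in C57. Of the liver list, Alb, Apoa1 and Fgb lay below the limit, as did S100a9, Ngp and Ltf of the neutrophil list. The tested neutrophil genes were S100a8, at 35.8 to 45.7 in DBA and 46.5 to 114.0 in C57 (-1.01 ± 0.23, adjusted p = 0.0506), and Camp (0.16 ± 0.24). The log2 ratio of 3′ to 5′ control sets, a measure of RNA integrity, was -0.44 to -0.32 in DBA and -0.29 to -0.19 in C57 for Gapdh (exact 2-sided permutation p = 0.0159, 0.0636 adjusted over 4 controls), and adjusted p for the other 3 controls were 0.111 to 0.159. The mean ratio was lower in DBA for all 4 controls. It differed (DBA minus C57) by -0.12 for Gapdh, -0.13 for Actb, -0.14 for Tfrc and -0.32 for Pcx. The part of all these measures in the differences above was not tested.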

How the data were processed

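Whole brain RNA of 4 DBA and 5 C57 mice was read on 9 arrays, 1 per animal number, and 5 ug of total RNA per sample was labelled, per the labels' protocol. The deposited values are 1 linear intensity per probe set; how the authors scanned, summarized and normalized them is not given in the sources used here beyond the shared scale of the arrays. The 18 arrays with a letter in the title were not used here. A floor at 1.70, the 1st percentile of all positive intensities, raised 0.98% of values, and log2 was taken. The 66 control sets and the dimmest 25% of other sets by mean over all arrays were left out. In R 4.3.3, limma 3.58.1 (lmFit, then eBayes) compared the strains in 2-sided tests with Benjamini-Hochberg adjustment over all 9316 sets, and ± after a log2 difference is the standard error. The fit was tested on simulated data. A microsomal transferase gene is not reported here. Symbols came from the platform annotation, updated through gene identifiers with RefSeq (GRCm38.p6). Figures were drawn with matplotlib 3.10.9. No array pair held the same values, and p-values measure the spread between these arrays.

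The members and lists were chosen with earlier results of these data known. Member sets named with statistics are those past the threshold, the other sets of those genes, those with an unadjusted p under 0.05, the tested sets of up to 3 genes with the smallest p per role, and the 3 with the largest and the 3 with the smallest within-strain SD; from each pathway list, the called genes or the one with the smallest p. Differences of other members (Gstm2, Gstm3, the second Gstm6 set, Gclm, Gpx7, Sod3, Txndc5 and those marked in the text) and of marker genes were added after their values were seen. Alternatives covered scaling, floor, filter, variance model, the animal number as a block, 1 set per gene and leaving out each animal. Animals that share a number are not stated to share anything, and their deviations from the strain means correlated at -0.167 to -0.007 over probe sets, so they were not treated as pairs.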

Additional observations from a re-analysis of the deposited data

Results flagged for a closer look

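Among the 58 groups formed by 29 named probe sets and 2 strains, 5 had 1 animal far from the rest, judged by the gap to its nearest neighbour as a share of the group's range on the log2 scale. About 1 in 20 such groups is expected for independent, normally distributed values in sets not chosen by their spread. Some of the 29 were named for a large or small spread, Gpx5 94692_at among them, so that rate does not hold for these. Others were named for a small p, which also depends on the spread, and sets read on 1 array are not independent. The rate over all sets was not computed, so the count of 5 has no background beside it. All 5 were in DBA, where a group has 4 animals and the share must exceed 0.829. DBA animal 3 accounted for 3 of them: Sod1 100538_at (0.918), at 7616.9 against 4036.9 to 4253.4 in the other DBA animals, Txnl1 160115_at (0.887), at 758.9 against 447.3 to 474.8, and Gpx5 94692_at (0.856), at 19.6 against 62.7 to 76.3. DBA animal 4 was low at Txn1 92807_at (0.922), at 2632.6 against 3319.1 to 3384.6. DBA animal 2 was low at Prdx3 96256_at (0.894), at 753.9 against 1258.3 to 1337.3. Without DBA animal 3 the log2 difference of Sod1 was 0.12 in place of 0.34.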

How the results depend on the processing

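The Prdx2 call at 99608_at was kept under each of the 17 alternatives in which that set was tested (log2 difference -1.90 to -1.80, adjusted p 2.48e-07 to 0.00654). The Gstz1 call was lost in 9 of 18 alternatives, with the log2 difference at 0.67 to 0.91 throughout. Of the 60 member sets, 2 were called in the setting reported. The count was 1 (0 higher) with median centring (Prdx2 alone), 1 (0 higher) without a filter on dim sets, 1 (0 lower) with the brightest set per gene, where Prdx2 99608_at is not tested, 3 (2 higher) with quantile normalization, and 4 (2 higher, 2 lower) both with the dimmest 50% left out, where fewer sets are tested, and with the variance model with trend. With 1 animal left out it was 1 to 2 (0 to 1 higher), and pathway genes called numbered 1 to 4, against 3 with all animals, with 1 (Glo1) left without DBA animal 1 or without C57 animal 5. Over all sets, 233 were called (83 higher, 150 lower), 154 (53 higher) with 1 set per gene, and 185 to 231 with 1 animal left out. With the animal number as a replicate block (animals 1 to 4, 1 C57 animal fewer), 73 sets were called (26 higher, 47 lower) and 1 member (0 higher), Gstz1 having an adjusted p of 0.208, Me1 0.228 and Nos1 0.0702. The filter, variance model and block were applied to pathway genes after seeing the data. No member call changed direction. The number of arrays limits the precision, and dim sets such as those of Gpx5, Gstm6 and Nqo1 have wide intervals.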
